A study of Homo sapiens with 22 samples.

Results

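The genes described here are the integrin subunits and laminin chains, taken by a list of 37 symbols that names 18 integrin alpha subunits, 8 integrin beta subunits, 5 laminin alpha chains, 4 laminin beta chains and 2 laminin gamma chains. All 37 symbols were found among the 35237 rows of the deposited RNA-seq count table. The table holds 22 libraries of total RNA from a pair of human neuroblastoma lines, SK-N-AS and GIMEN, and the study compared untreated cells with cells treated with PP121 and bufalin for up to 30 days. PP121 is an inhibitor of tyrosine kinases and PI3-kinase family kinases, and bufalin is a cardiac glycoside that inhibits the sodium-potassium pump.

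Untreated SK-N-AS cells (n = 4) were kept in DMEM with 10% serum. The group S1D4 (n = 4) received 5 µM PP121 for 4 days in DMEM with 1% serum. The groups S2D4 and S2D30 (n = 4 each) were S1D4 cells that then received 5 µM PP121 with 100 nM bufalin for a further 4 or 30 days. They were kept in Neurobasal medium with B27 and 0% serum. Untreated GIMEN cells (n = 3) were kept in RPMI with 10% serum, and the group D30 (n = 3) received 2.5 µM PP121 with 10 nM bufalin for 30 days in RPMI with 1% serum. Serum changed together with the compounds in every treated group, and the base medium changed as well in S2D4 and S2D30. The shares of these factors in a difference from untreated cells cannot be told apart. The labels number the replicates without saying that they came from separate cultures, so the p-values below measure only the spread between these libraries, which may be technical.

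Integrins are receptors of the plasma membrane made of 1 alpha and 1 beta subunit, and the pairing decides the ligand. Laminins are secreted trimers of an alpha, a beta and a gamma chain that form the sheet to which the other parts of a basement membrane attach. Cells bind laminins mainly through integrins with the alpha subunits ITGA3, ITGA6 or ITGA7, collagens through ITGA1, ITGA2, ITGA10 or ITGA11, and ligands with an RGD sequence, such as fibronectin and vitronectin, through ITGA5, ITGA8, ITGAV or ITGA2B. In neuroblastoma, adhesion genes of this kind are usually high in the mesenchymal cell state and low in the adrenergic one.

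Libraries held 16456484 to 37506800 counted reads, and replicates of a group correlated with a Pearson r of 0.9673 to 0.992 across genes. Library 4 of S2D4 stood apart from the other 3 of its group, with r of 0.9673 to 0.969 against at least 0.9898 among the others. In S1D4, libraries 1 and 2 and libraries 3 and 4 formed separate pairs, with a chi-square per gene of 6.7 and 3.16 within the pairs and 24.1 to 27.4 across them. Both lines carry the label MES. Untreated SK-N-AS held the adrenergic marker DBH, the enzyme that makes noradrenaline, at 76.6 CPM (counts scaled to library size) and the mesenchymal marker FN1 at 60.3 CPM, whereas DBH was at 0.102 CPM and FN1 at 31500 CPM in untreated GIMEN. Of 11 tested mesenchymal markers, 9 were higher and 2 lower in untreated GIMEN than in untreated SK-N-AS. Of 11 adrenergic markers, 1 was higher and 10 lower, while over all tested genes 35.3% were higher and 38.6% lower. The adrenergic marker HAND2 still held 351 to 369 CPM in untreated GIMEN. At S2D30, 9 of 11 tested mesenchymal markers rose and 2 fell, while 11 of 12 adrenergic markers fell and 0 rose. In GIMEN D30, 2 of 11 mesenchymal markers rose and 7 fell, and 1 of 7 adrenergic markers rose and 4 fell. Of 8 endothelial markers, 1 of 5 tested rose and 2 fell at S2D30, and 1 of 3 rose and 1 fell in GIMEN D30. Over all tested genes, 33.8% rose and 36.5% fell at S2D30, and 35.5% rose and 36% fell in GIMEN D30. The same shares apply beside the marker counts further below.

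Of the 37 members, 23 reached a mean of 10 CPM in at least 1 of the 6 groups, 8 lay between 1 and 10 CPM at their highest and 6 stayed under 1 CPM. Enough reads for a test were present for 32 members in SK-N-AS and 28 in GIMEN, with 25 tested in both lines and 2, ITGB7 and LAMB4, in neither. Levels below are CPM with a common TMM scaling over all 22 libraries, and fold changes come from edgeR models of each comparison. A member was called when its edgeR quasi-likelihood p, adjusted by Benjamini-Hochberg over all genes tested, was under 0.05. In bulk RNA, a change in the share of cells that express a gene and a change in RNA per cell cannot be told apart.

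**Figure D1:**
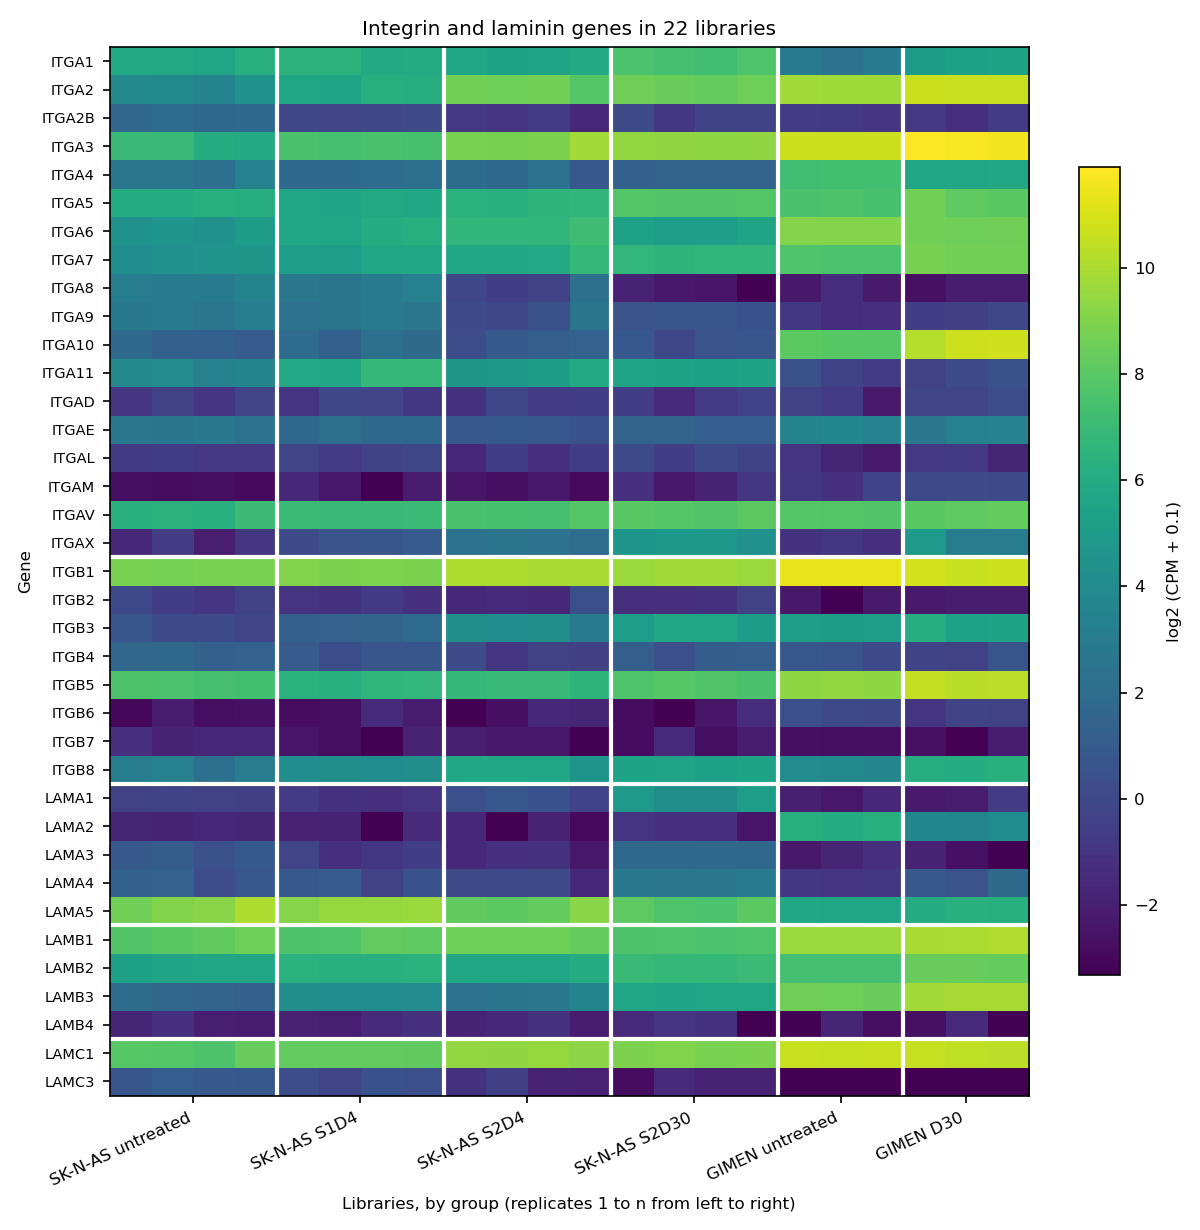
Levels of the 37 members in each of the 22 libraries, as log2 (CPM + 0.1), with genes grouped from top to bottom into integrin alpha, integrin beta, laminin alpha, laminin beta and laminin gamma, and libraries grouped by treatment. ITGB1, ITGA3, LAMC1 and LAMB1 are among the brightest rows, ITGA10, ITGA4 and LAMA2 are bright in GIMEN and dark in SK-N-AS, and ITGAX turns from dark to bright in both lines.

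After 4 days of PP121 (S1D4), 11 of 32 tested members rose and 7 fell, that is 56.2% called, where 40.1% of all tested genes were called (17.6% higher and 22.4% lower). The median change of the members was a log2 fold change of 0.12, against -0.01 for all genes. After 4 days of the combination (S2D4), 14 members rose and 11 fell against untreated cells, 78.1% called, with 63.1% called among all genes (30.9% higher, 32.2% lower) and medians of 0.10 and -0.02. At S2D30, 18 rose and 9 fell, 84.4% called against 70.3% of all genes (33.8% higher, 36.5% lower), with medians of 0.87 and -0.03. These 3 comparisons share the untreated libraries. Without library 4 of S2D4, the S2D4 comparison gave 14 higher and 12 lower.

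In GIMEN D30, 16 of 28 tested members rose and 5 fell. This is 75% called, where 71.4% of all genes were called (35.5% higher, 36% lower), and the median log2 fold change was 0.79 for members and 0.02 for all genes. Called members were thus about as frequent as called genes in general, and 9 of the 16 rises and 2 of the 5 falls reached 2-fold. Between successive SK-N-AS stages, 13 members rose and 13 fell from S1D4 to S2D4 (81.2% called, against 55.1% of all genes, 28.3% higher and 26.8% lower). From S2D4 to S2D30, 16 rose and 5 fell (65.6% called, against 51.3% of all genes, 24.4% higher and 26.9% lower), or 18 and 7 without library 4 of S2D4.

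**Figure D2:**
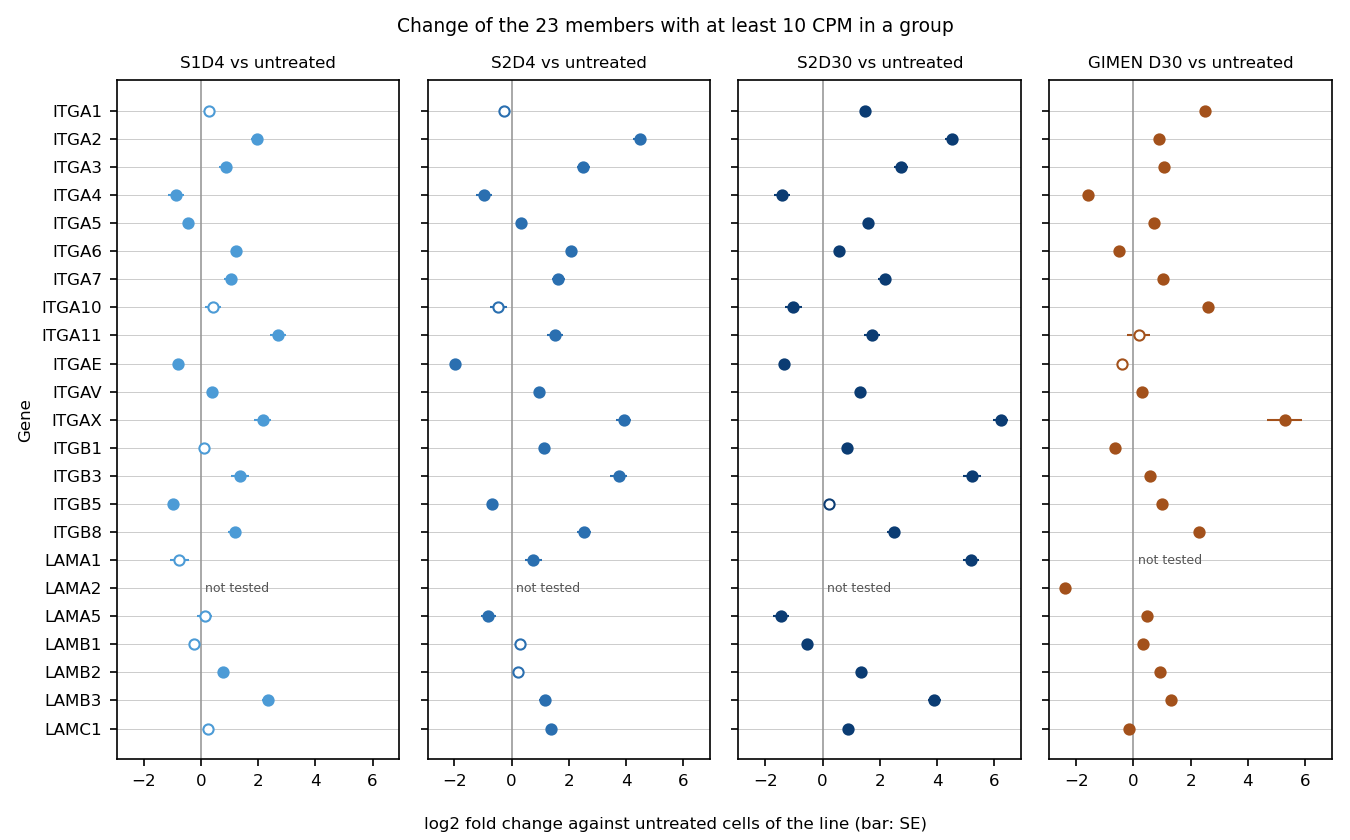
Log2 fold change against untreated cells of the same line (bars, SE) for the 23 members with at least 10 CPM in a group, in 4 panels for S1D4, S2D4, S2D30 and GIMEN D30. Filled points passed the edgeR test at an adjusted p of 0.05 and open points did not. ITGAX has the largest log2 fold change among these genes at S2D30 (6.22) and in GIMEN D30 (5.28), and ITGA4 lies left of 0 in all 4 panels.

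Among the laminin-binding alpha subunits, ITGA3 and ITGA7 rose in both lines, while ITGA6 rose and fell back in SK-N-AS and fell in GIMEN. ITGA3 pairs with ITGB1 and binds laminins that carry the alpha-3 or alpha-5 chain. It stood at 129, 124, 68 and 63.5 CPM in untreated SK-N-AS, at 182, 169, 185 and 180 CPM in S1D4, at 458, 445, 479 and 865 CPM in S2D4 and at 686, 661, 637 and 675 CPM in S2D30. In GIMEN it went from 1630, 1650 and 1620 CPM to 3810, 3390 and 3200 CPM. No treated library of either line fell within the range of the untreated libraries of its line.

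For ITGA3 the log2 fold change was 0.87 (SE 0.23, edgeR adjusted p = 0.0066) at S1D4, 2.51 (SE 0.24, adjusted p = 1.5e-07) at S2D4, 2.75 (SE 0.24, adjusted p = 3.1e-08) at S2D30 and 1.06 (SE 0.08, adjusted p = 2.45e-07) in GIMEN D30. ITGA7, the main laminin receptor subunit of muscle, rose from 16.9, 21, 24.5 and 26 CPM in untreated SK-N-AS to 108, 95, 102 and 103 CPM at S2D30, or 2.17 on the log2 scale (SE 0.23, edgeR adjusted p = 2.36e-07). In GIMEN D30 it rose by 1.04 on the log2 scale (SE 0.06, edgeR adjusted p = 4.02e-08). Its small steps between successive SK-N-AS stages (0.59 from S1D4 to S2D4 and 0.55 from S2D4 to S2D30) were called, but the first ended without library 4 of S2D4 (0.27, adjusted p = 0.161) and the second ended without any 1 of 7 of the 8 libraries.

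ITGA6 pairs with ITGB1 or, in hemidesmosomes, with ITGB4. Its libraries held 22.6, 25.9, 22.4 and 32.7 CPM in untreated SK-N-AS, 52.9, 51.4, 68.9 and 75.5 CPM in S1D4, 102, 102, 103 and 142 CPM in S2D4 and 41.6, 35, 34.8 and 47.7 CPM in S2D30. Levels at S2D30 were thus below every S1D4 and S2D4 library and above every untreated one. From S2D4 to S2D30 ITGA6 fell by 1.50 on the log2 scale (SE 0.16, edgeR adjusted p = 1.04e-06). In GIMEN, which had no treated group before day 30, ITGA6 was at 540, 541 and 529 CPM untreated and 396, 366 and 392 CPM at D30 (log2 fold change -0.51, SE 0.06, edgeR adjusted p = 1.49e-05). Its hemidesmosome partner ITGB4 stayed under 4 CPM in all groups, and 0 of 4 tested epithelial and hemidesmosome markers rose and 1 fell at S2D30 (1 and 1 of 3 in GIMEN D30). Of the 12 on that list, COL17A1, KRT5, KRT14, TP63 and DSP were each under 1 CPM in every group. KRT8 and KRT18, keratins of simple epithelia, were not low, at 27.8 to 32.2 and 68.3 to 79.9 CPM at S2D30, and the list summed to 40.8 to 120 CPM untreated, 95.5 to 134 CPM in S1D4, 91.5 to 179 CPM in S2D4 and 99.9 to 110 CPM in S2D30. In GIMEN it summed to 262 to 269 CPM untreated and 136 to 161 CPM at D30. The part of such cells in the ITGA6 values was not tested.

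Each of the 4 collagen-binding alpha subunits differed between the untreated lines and in its day-30 change. ITGA2, the subunit of the collagen receptor of platelets and epithelia, went in SK-N-AS from 14.5, 15.3, 10.9 and 21.1 CPM through 50.4, 47.4, 73.8 and 72.5 CPM in S1D4 to 408, 366, 404 and 228 CPM in S2D4 and 387, 360, 321 and 372 CPM in S2D30. The groups were separate up to S2D4, and the S2D4 and S2D30 libraries overlapped. The log2 fold change against untreated cells was 1.96 (SE 0.21, edgeR adjusted p = 2.86e-06) at S1D4, 4.47 (SE 0.23, adjusted p = 1.08e-10) at S2D4 and 4.51 (SE 0.23, adjusted p = 3.74e-11) at S2D30. Untreated GIMEN already held 871, 837 and 836 CPM and rose to 1640, 1570 and 1560 CPM at D30 (log2 fold change 0.88, SE 0.06, edgeR adjusted p = 2e-07).

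ITGA10 showed the reverse arrangement. This chondrocyte-type collagen receptor subunit was at 0.87 to 4.72 CPM in all SK-N-AS libraries and at 262, 248 and 246 CPM in untreated GIMEN. In GIMEN D30 it reached 1160, 1740 and 1790 CPM, or 2.61 on the log2 scale (SE 0.14, edgeR adjusted p = 2.64e-08), while in SK-N-AS it fell by 1.02 (SE 0.30, edgeR adjusted p = 0.00581) by S2D30. ITGA11, a fibroblast collagen receptor subunit, was a SK-N-AS gene here. It rose from 14, 15.8, 9.88 and 11.8 CPM to 57.6, 55.8, 113 and 114 CPM in S1D4 and held 47.8, 45.6, 40.1 and 43.6 CPM at S2D30. Its log2 fold change was 2.70 (SE 0.29, edgeR adjusted p = 2.88e-06) at S1D4 and 1.74 (SE 0.28, adjusted p = 3.57e-05) at S2D30, and in GIMEN it lay between 0.565 and 1.29 CPM.

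ITGA1 was late in SK-N-AS. The untreated libraries overlapped with those of S1D4 and of S2D4, at means of 61.4, 76.9 and 52.7 CPM, and ITGA1 then stood at 196, 160, 151 and 206 CPM in S2D30 (log2 fold change 1.50 against untreated, SE 0.15, edgeR adjusted p = 1.97e-07). In GIMEN it rose from 7.69, 5.35 and 7.52 CPM to 31.2, 39.7 and 46.1 CPM, or 2.49 on the log2 scale (SE 0.17, edgeR adjusted p = 1.39e-07). In the GENCODE annotation, 5.63% of its exon bases overlap genes on the same strand and 1.22% overlap genes on the opposite strand.

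Among the RGD-binding subunits, ITGAV is the shared alpha subunit of the vitronectin and latent-TGF-beta receptors. Its libraries held 81.1, 86, 81.7 and 140 CPM in untreated SK-N-AS, 132, 128, 124 and 130 CPM in S1D4, 183, 176, 168 and 235 CPM in S2D4 and 257, 240, 220 and 267 CPM in S2D30. Library 4 of the untreated cells was above all S1D4 libraries. The log2 fold change reached 1.31 (SE 0.15, edgeR adjusted p = 6.62e-07) at S2D30, and in GIMEN D30 it was 0.31 (SE 0.08, adjusted p = 0.00593). The S1D4 rise (0.38, SE 0.15, edgeR adjusted p = 0.0493) passed narrowly and was lost when any 1 of 7 of the 8 libraries was left out.

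ITGA5, the alpha subunit of the classical fibronectin receptor, fell first and rose later in SK-N-AS. Its means were 70.4, 53, 91 and 219 CPM from untreated to S2D30, with log2 fold changes of -0.43 (SE 0.09, edgeR adjusted p = 0.00137) at S1D4, 0.34 (SE 0.09, adjusted p = 0.00438) at S2D4 and 1.60 (SE 0.09, adjusted p = 1.78e-10) at S2D30. In GIMEN D30 it rose by 0.71 (SE 0.13, edgeR adjusted p = 0.000426). FN1, the gene of its ligand fibronectin, fell in SK-N-AS by 5.02 on the log2 scale, from 60.3 to 1.89 CPM, by S2D30. ITGA8, another RGD-binding subunit, was lost from SK-N-AS, from 8.8, 8.09, 7.54 and 11.2 CPM to 0.175, 0.102, 0.0906 and 0 CPM at S2D30 (log2 fold change -6.56, SE 0.72, edgeR adjusted p = 4.41e-07). Library 4 of S2D4 held 4.76 CPM of it, against 0.597 to 0.885 CPM in the other 3.

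The promoters of ITGA2 and ITGAV, are shown because these genes are a large and a moderate rise of SK-N-AS that were smaller in GIMEN. Each line gives the 250 bases before the RefSeq transcription start (RefSeq, build GRCh38.p14, 5′ to 3′ on the gene's strand), with capitals marking matches to the GC box GGGCGG on either strand. ITGA2 lies on the plus strand at chr5:52989102-52989351 and ITGAV on the plus strand at chr2:186589806-186590055.
ITGA2: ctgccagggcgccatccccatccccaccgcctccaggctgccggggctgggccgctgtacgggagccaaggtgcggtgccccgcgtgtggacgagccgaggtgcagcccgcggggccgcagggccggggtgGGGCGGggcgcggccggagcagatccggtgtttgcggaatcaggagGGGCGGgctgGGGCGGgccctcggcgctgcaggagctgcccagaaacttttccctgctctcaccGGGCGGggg
ITGAV: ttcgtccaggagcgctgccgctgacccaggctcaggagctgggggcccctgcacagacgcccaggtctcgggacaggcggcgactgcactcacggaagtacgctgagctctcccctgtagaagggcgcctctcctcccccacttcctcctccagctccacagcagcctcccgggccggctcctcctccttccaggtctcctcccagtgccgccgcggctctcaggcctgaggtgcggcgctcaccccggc
The ITGA2 window holds 4 GC boxes, at 119, 73, 63 and 9 bases before the start, and the ITGAV window none. The RefSeq table matched 26 of the 37 members. Of these, 13 held a GC box, as did 42.2% of 27326 promoters of the same length, 1 (LAMA3) held the AP-1 motif TGANTCA, as did 6.57% of all, and 4 held the TEAD motif GGAATG, as did 12%. These motifs were searched on both strands, and matches of different motifs were counted independently. A match is a description of the letters only.

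**Figure D3:**
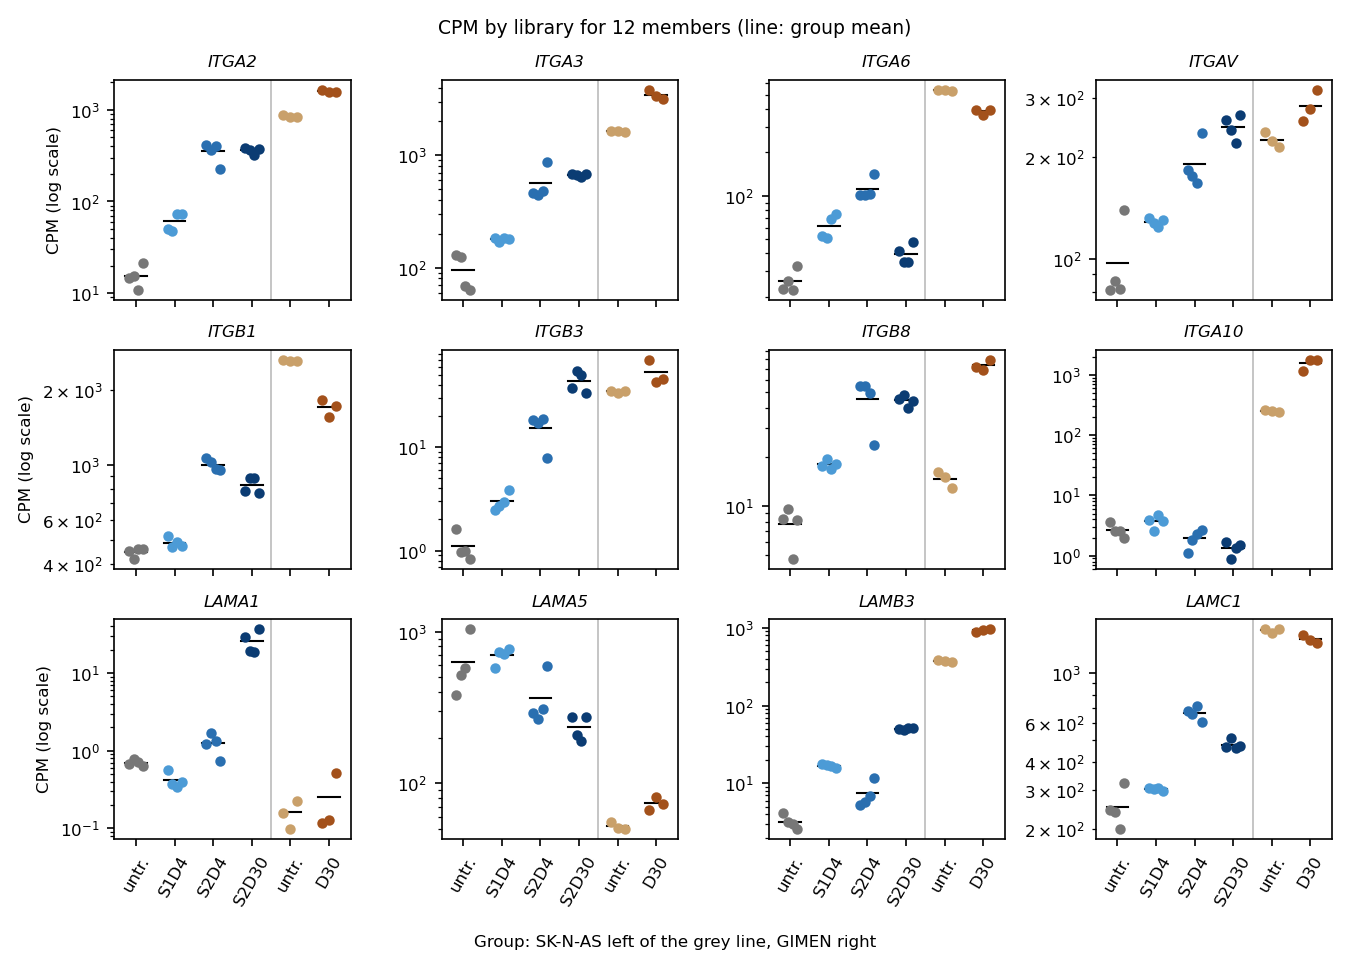
CPM of 12 members in each library on a log scale, with SK-N-AS groups left of the grey line and GIMEN groups right, points as libraries and black lines as group means. ITGA2 goes from a mean of 15.4 to 360 CPM in SK-N-AS, ITGA10 is high in GIMEN only, LAMA1 is high in S2D30 only, and ITGB1 and ITGA6 move in opposite directions in the lines by day 30.

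Among the beta subunits, ITGB1, the partner of most alpha subunits, was the most abundant per kilobase of exon in every group. It stood at 453, 418, 461 and 461 CPM in untreated SK-N-AS, 520, 469, 489 and 472 CPM in S1D4, 1060, 1030, 961 and 953 CPM in S2D4 and 788, 882, 884 and 768 CPM in S2D30. The S1D4 libraries all lay above the untreated ones by a small margin that was not called (0.10, SE 0.08, edgeR adjusted p = 0.342). Against untreated cells the log2 fold change was 1.12 (SE 0.08, edgeR adjusted p = 2.75e-09) at S2D4 and 0.85 (SE 0.08, adjusted p = 3.63e-08) at S2D30. In GIMEN, ITGB1 fell from 2640, 2610 and 2600 CPM to 1820, 1560 and 1720 CPM, by 0.65 on the log2 scale (SE 0.07, edgeR adjusted p = 9.89e-06).

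ITGB3 pairs with ITGAV in the vitronectin receptor and with ITGA2B in the platelet fibrinogen receptor. Its SK-N-AS libraries held 1.61, 0.962, 1 and 0.824 CPM untreated, 2.45, 2.68, 2.95 and 3.86 CPM in S1D4, 18.4, 17, 18.5 and 7.87 CPM in S2D4 and 37, 54.6, 49.4 and 33.1 CPM in S2D30, with no overlap between any of these groups. The log2 fold change was 1.38 (SE 0.31, edgeR adjusted p = 0.00197), 3.74 (SE 0.30, adjusted p = 1.71e-08) and 5.23 (SE 0.31, adjusted p = 2.14e-10) in that order. In GIMEN it went from 34.7, 33.6 and 35 CPM to 70.1, 42.5 and 45.5 CPM (0.59, SE 0.15, edgeR adjusted p = 0.00464). In the GENCODE annotation, 51.6% of its exon bases overlap a gene on the same strand, AC068234.1, so reads of the pair may have been assigned differently by the authors' counting.

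ITGA2B, the platelet partner of ITGB3, moved the other way in SK-N-AS, from 3.12, 3.85, 3.24 and 3.54 CPM to 1.05, 0.461, 0.77 and 0.782 CPM at S2D30 (log2 fold change -2.18, SE 0.26, edgeR adjusted p = 1.34e-06). Summed over 8 platelet markers, levels were 37.9 to 66 CPM in untreated SK-N-AS, nearly all of it GP1BB (mean 49.2 CPM), and 8.82 to 9.95 CPM at S2D30, while PF4 and GP9 were at 0 in all groups. Of 3 tested platelet markers, 1 rose and 2 fell at S2D30, and 0 of 1 was called in GIMEN D30. Whether those genes had a part in the change of ITGA2B was not tested.

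ITGB8, which with ITGAV binds latent TGF-beta, rose in both lines. It went in SK-N-AS from 8.33, 9.62, 4.68 and 8.15 CPM to 17.6, 19.4, 16.9 and 18 CPM in S1D4, to 55.1, 54.6, 49.7 and 23.7 CPM in S2D4 and to 45.8, 48, 40.2 and 44.4 CPM in S2D30. GIMEN went from 16.2, 15 and 12.9 CPM to 71.8, 68.6 and 79.7 CPM. The treated and untreated libraries were separate in both lines. The log2 fold changes at day 30, 2.49 (SE 0.23, edgeR adjusted p = 6.43e-08) in SK-N-AS and 2.29 (SE 0.10, adjusted p = 2.53e-09) in GIMEN, differed by 0.18 (SE 0.22, adjusted p = 0.538). Of the TGF-beta genes on the ligand list, TGFB1 rose as well, by 1.13 at S2D30 and by 0.68 in GIMEN D30 on the log2 scale. TGFB3 did not, at 5.07 to 7.83 CPM in untreated SK-N-AS and 0.725 to 1.23 CPM at S2D30. In GIMEN, TGFB3 was at 20.1 to 22.7 CPM untreated and 16.9 to 22.5 CPM at D30.

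ITGB5, the other vitronectin-binding partner of ITGAV, dipped and recovered in SK-N-AS. It held 198, 190, 168 and 157 CPM untreated, 83.5, 77.3, 102 and 106 CPM in S1D4, 113, 125, 120 and 95.9 CPM in S2D4 and 208, 248, 217 and 182 CPM in S2D30. Both early groups lay below every untreated library and S2D30 overlapped with them. The log2 fold change was -0.98 (SE 0.13, edgeR adjusted p = 1.61e-05) at S1D4, -0.69 (SE 0.13, adjusted p = 0.000156) at S2D4 and 0.23 (SE 0.12, adjusted p = 0.115) at S2D30. In GIMEN D30 it rose from 645, 677 and 647 CPM to 1420, 1290 and 1310 CPM, by 1.00 (SE 0.07, edgeR adjusted p = 1.06e-07).

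ITGA4 and ITGA9 form a group of their own whose members bind VCAM1, fibronectin splice forms and tenascin-C. ITGA4 fell in both lines. It went in GIMEN from 150, 155 and 156 CPM to 50.2, 51.2 and 55.7 CPM (log2 fold change -1.58, SE 0.06, edgeR adjusted p = 1.9e-09) and in SK-N-AS from 6.83, 6.29, 4.53 and 10.2 CPM to 2.46, 2.76, 2.85 and 2.78 CPM at S2D30 (-1.40, SE 0.28, adjusted p = 0.000291). At S1D4 the fall was 0.87 (SE 0.27, edgeR adjusted p = 0.0175) and ended without library 4 of the untreated cells (-0.63, adjusted p = 0.071). ITGA9 fell in SK-N-AS from 6.06 to 8.85 CPM untreated to 1.35 to 1.54 CPM at S2D30 (-2.38, SE 0.44, edgeR adjusted p = 0.000145) and lay under 1 CPM in GIMEN. Of their ligands, VCAM1 fell by 4.15 and TNC, the gene of tenascin-C, rose by 5.02 on the log2 scale at S2D30, TNC from 19.7 to 654 CPM.

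Of the integrin subunits typical of leukocytes, ITGAX, the CD11c subunit of dendritic cells and macrophages, rose in both lines. In SK-N-AS it went from 0.223, 0.525, 0.143 and 0.427 CPM to 1.08, 1.41, 1.56 and 1.95 CPM in S1D4, 5.12, 5.59, 5.46 and 4.31 CPM in S2D4 and 25.6, 27.9, 27.5 and 20.4 CPM in S2D30. Each group lay wholly above the one before. In that order the log2 fold change was 2.16 (SE 0.29, edgeR adjusted p = 2.17e-05), 3.91 (SE 0.27, adjusted p = 2.97e-09) and 6.22 (SE 0.27, adjusted p = 6.86e-12). In GIMEN it went from 0.361, 0.442 and 0.339 CPM to 29.1, 8.69 and 8.48 CPM, or 5.28 on the log2 scale (SE 0.61, edgeR adjusted p = 1.14e-05), or 4.45 without library 1 of D30, which held the highest value.

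The beta subunit with which ITGAX forms its receptor, ITGB2, did not move with it. ITGB2 lay between 0.233 and 1.2 CPM in all SK-N-AS libraries and at or under 0.128 CPM in GIMEN, and its S2D30 change was not called (log2 fold change -0.71, SE 0.49, edgeR adjusted p = 0.208). ITGAD, ITGAL and ITGAM, the other alpha subunits that pair with ITGB2, stayed at or under 1.09 CPM in every library. ITGAD and ITGAL were called in no comparison with untreated cells of their line, and ITGAM was not called in GIMEN D30 (0.90, SE 0.39, edgeR adjusted p = 0.0562) and not tested in SK-N-AS. ITGAE, the E-cadherin-binding subunit of epithelial T cells, fell in SK-N-AS from 5.25 to 6.97 CPM untreated to 2.22 to 2.81 CPM at S2D30 (-1.34, SE 0.18, edgeR adjusted p = 3.85e-06). In GIMEN it stood at 11, 13.5 and 10.4 CPM untreated and 6.46, 9.84 and 10.6 CPM at D30. That change was not called (-0.41, edgeR adjusted p = 0.0654). Opposite-strand genes overlap 7.59% of the exon bases of ITGAE, 9.56% of those of ITGAL and 6.46% of those of ITGA9.

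Of 16 leukocyte markers, CD3D, CD3E, CD2, MS4A1, LYZ, SPI1 and TYROBP were under 1 CPM in every group. The summed level of the 16 was 180 to 225 CPM in untreated SK-N-AS, 70.9 to 81.3 CPM in S1D4, 31.8 to 55.5 CPM in S2D4 and 71.5 to 78.4 CPM in S2D30. In GIMEN it was 28.7 to 35.3 CPM untreated and 8.54 to 11 CPM at D30. PTPRC, the gene of the pan-leukocyte antigen CD45, made up most of the untreated SK-N-AS sum and fell from a mean of 177 to 0.85 CPM by S2D30, while LCP1, the leukocyte actin-bundling protein L-plastin, rose from 0.534 to 67.5 CPM. Of 5 tested markers, 3 rose and 2 fell at S2D30, and 2 rose and 3 fell in GIMEN D30. Besides LCP1, the S2D30 rises were of CD14 and CSF1R, at low levels. CD14 held 0.794 to 1.84 CPM in untreated SK-N-AS and 2.1 to 4.47 CPM at S2D30. CSF1R held 0.131 to 0.488 CPM and 1.43 to 2.27 CPM in these groups. In GIMEN, CSF1R was at 9.59 to 12.9 CPM untreated and 4.13 to 6.87 CPM at D30. CORO1A fell in SK-N-AS from 13.2 to 18.9 CPM untreated to 0.362 to 0.746 CPM at S2D30.

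**Figure D4:**
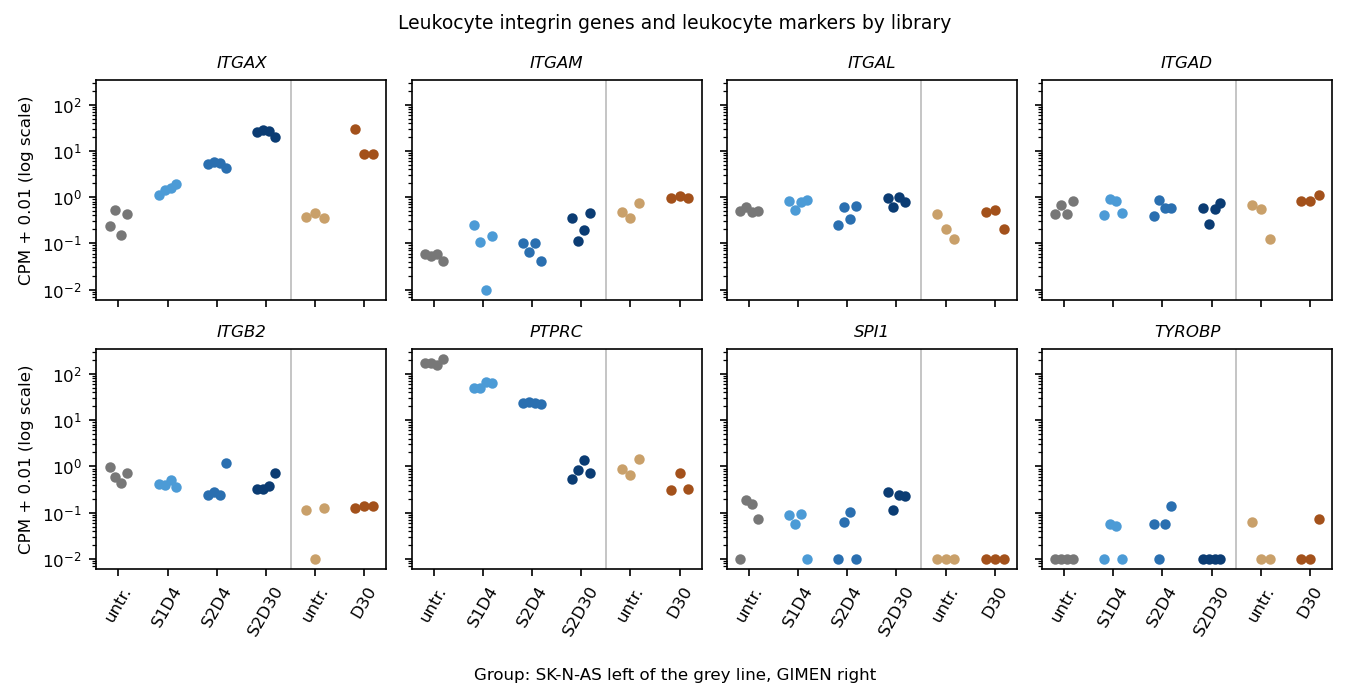
CPM + 0.01 on a log scale, by library, for ITGAX, the other alpha subunits of its family, their common beta subunit ITGB2 and the leukocyte markers PTPRC, SPI1 and TYROBP, with SK-N-AS left of the grey line and GIMEN right. ITGAX climbs to 20.4 to 27.9 CPM in S2D30 and 8.48 to 29.1 CPM in GIMEN D30. PTPRC falls in SK-N-AS from a mean of 177 to 0.85 CPM. The leukocyte markers that rose at S2D30, LCP1, CD14 and CSF1R, are not drawn.

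Laminin alpha chains carry the receptor-binding end of the trimer. LAMA5, the broadly expressed alpha-5 chain, was the main alpha chain of every SK-N-AS group. It stood at 382, 516, 575 and 1040 CPM in untreated cells, 572, 731, 715 and 772 CPM in S1D4, 292, 266, 309 and 596 CPM in S2D4 and 275, 208, 191 and 272 CPM in S2D30. All S2D30 libraries lay below all untreated ones (log2 fold change -1.44, SE 0.28, edgeR adjusted p = 0.000205). The S2D4 fall (-0.81, SE 0.27, edgeR adjusted p = 0.0164) rested on single libraries, since it ended without library 4 of the untreated cells (-0.46, adjusted p = 0.103) and without library 1 or 2 of S2D4. GIMEN D30 moved up from 55.5, 50.9 and 50.1 CPM to 66.5, 81 and 73.5 CPM (0.47, SE 0.08, edgeR adjusted p = 0.000258).

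LAMA1, the alpha chain of early embryonic basement membranes, appeared late. Its libraries held 0.668, 0.787, 0.716 and 0.641 CPM in untreated SK-N-AS, 0.337 to 0.563 CPM in S1D4, 1.21, 1.68, 1.32 and 0.745 CPM in S2D4 and 29.5, 19.2, 18.7 and 36.8 CPM in S2D30. At S2D30 the log2 fold change was 5.18 (SE 0.28, edgeR adjusted p = 7.22e-11). The small S2D4 rise (0.76, SE 0.29, edgeR adjusted p = 0.0312) ended when any 1 of 6 of the 8 libraries was left out, and GIMEN stayed at or under 0.514 CPM. Opposite-strand genes overlap 11.1% of the exon bases of LAMA1.

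LAMA3 and LAMA4, at lower levels, had their lowest means at S2D4 and rose by S2D30. The fall of LAMA3 was present at S1D4, with 0.33 to 0.804 CPM against 1.29 to 2.19 CPM in untreated SK-N-AS. LAMA3, the epithelial anchoring chain, had means of 1.79, 0.555, 0.258 and 3.39 CPM from untreated to S2D30, and the S2D30 libraries were 1.85-fold above untreated ones (log2 fold change 0.89, SE 0.28, edgeR adjusted p = 0.0102). LAMA4, a chain of vessels and mesenchyme, had means of 1.99, 1.42, 0.826 and 6.87 CPM (1.74 at S2D30, SE 0.37, edgeR adjusted p = 0.000486) and rose in GIMEN from 0.436 to 2.25 CPM (2.32, SE 0.44, adjusted p = 0.000624). LAMA2, the chain of muscle and peripheral nerve, belonged to GIMEN. It fell there from 77.1, 67.9 and 76.4 CPM to 13.6, 12.7 and 16.6 CPM (-2.39, SE 0.10, edgeR adjusted p = 3.11e-09) and did not exceed 0.395 CPM in any SK-N-AS library.

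Among the beta chains, LAMB3, a chain of the epithelial anchoring laminin, rose most. It went in SK-N-AS from 4.13, 3.15, 3.01 and 2.59 CPM to 17.9, 17.3, 16.5 and 15.8 CPM in S1D4, back to 5.22, 5.81, 6.78 and 11.8 CPM in S2D4 and to 49.4, 48.2, 51.2 and 51.4 CPM in S2D30. The 4 groups did not overlap, with log2 fold changes of 2.35 (SE 0.21, edgeR adjusted p = 4.93e-07), 1.17 (SE 0.21, adjusted p = 0.000137) and 3.91 (SE 0.22, adjusted p = 1.09e-10). In GIMEN it rose from 381, 370 and 359 CPM to 885, 941 and 965 CPM (1.30, SE 0.07, edgeR adjusted p = 1.14e-08).

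LAMB2, the beta chain of synapses, vessels and glomeruli, rose by 1.33 at S2D30 (SE 0.10, edgeR adjusted p = 5.9e-09), from a mean of 47.4 to 122 CPM, and by 0.94 in GIMEN D30 (SE 0.05, adjusted p = 3.8e-08), from 165 to 324 CPM. LAMB1, the widely expressed beta chain, fell by 0.54 at S2D30 (SE 0.14, edgeR adjusted p = 0.00316), from a mean of 286 to 201 CPM, and rose by 0.35 in GIMEN D30 (SE 0.07, adjusted p = 0.00057), from 784 to 1020 CPM. The S2D30 libraries of LAMB1, at 203, 207, 191 and 205 CPM, lay just under the lowest untreated one at 221 CPM.

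LAMC1, the gamma chain of most laminins, rose from 243, 238, 201 and 323 CPM in untreated SK-N-AS to 677, 657, 708 and 606 CPM in S2D4 (log2 fold change 1.37, SE 0.11, edgeR adjusted p = 1.31e-08) and stood at 467, 513, 462 and 472 CPM in S2D30 (0.90, SE 0.11, adjusted p = 1.04e-06). In GIMEN D30 it fell slightly, from 1570, 1510 and 1570 CPM to 1480, 1400 and 1360 CPM (-0.16, SE 0.06, edgeR adjusted p = 0.0428), a call that ended with upper-quartile scaling (adjusted p = 0.135), with a replicate block (adjusted p = 0.0998) and without any 1 of 4 of the 6 libraries (adjusted p = 0.0774 to 0.136). LAMC3 fell in SK-N-AS from 1.61 to 2.23 CPM to 0.0439 to 0.256 CPM at S2D30 (-3.50, SE 0.44, edgeR adjusted p = 2.04e-06) and had 0 counts in all 6 GIMEN libraries. Set against 3 counts per library, it was at least 11.7-fold lower in untreated GIMEN than in untreated SK-N-AS, a bound that covers counting error only.

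Levels of different genes were compared per kilobase of exon, with all annotated exons of a gene merged. That length can differ from the length of the transcripts expressed, and the SDs cover only the spread between libraries. On that scale the summed integrin alpha subunits rose from 50 ± 5.16 (SD, n = 4) CPM per kb in untreated SK-N-AS through 81.4 ± 9.02 and 174 ± 24.9 to 213 ± 11.2 at S2D30, and from 501 ± 7.89 (SD, n = 3) to 1010 ± 8.73 in GIMEN. The summed beta subunits went from 104 ± 3.08 to 185 ± 16.1 in SK-N-AS and from 546 ± 4.05 to 508 ± 34.3 in GIMEN. The ratio of summed alpha to summed beta levels therefore went from 0.484 ± 0.0554 in untreated SK-N-AS to 1.16 ± 0.157 at S2D30, and from 0.918 ± 0.00816 to 2.01 ± 0.152 in GIMEN, with no overlap between untreated and day-30 libraries in either line.

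The leading alpha subunit per kilobase was ITGAV in untreated SK-N-AS (11.8 ± 3.5 CPM per kb), not separable from ITGA3 (9.81 ± 3.59) and ITGA5 (9.29 ± 0.412) by their spread. ITGA3 led in all other groups, with 67.8 ± 2.18 at S2D30, followed by ITGA2 with 45.5 ± 3.61. In GIMEN D30 the order was ITGA3 (353 ± 31.7), ITGA10 (247 ± 55.4) and ITGA2 (201 ± 5.24), where ITGA10 and ITGA2 differed by less than the SD of ITGA10. ITGB1 and ITGB5 together made up most of the beta subunits in every group, with ITGB1 at 74.6 ± 3.43 and ITGB5 at 27.6 ± 2.97 in untreated SK-N-AS and at 283 ± 21.3 and 208 ± 10.6 in GIMEN D30.

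For laminins, LAMA5 made up 99.2% of the summed alpha chains in untreated SK-N-AS and 86.9% at S2D30, where LAMA1 reached 8.61%. Untreated GIMEN carried more LAMA2 (7.12 ± 0.492 CPM per kb) than LAMA5 (3.65 ± 0.205), and at D30 the order was reversed, with LAMA5 at 5.15 ± 0.505 and LAMA2 at 1.38 ± 0.199. Among beta chains LAMB1 led in SK-N-AS, with 24.7 ± 0.892 against 17.8 ± 1.58 for LAMB2 at S2D30. In GIMEN LAMB3 passed LAMB1, from 78.9 ± 2.36 against 96.3 ± 1.22 untreated to 198 ± 8.69 against 125 ± 7.08 at D30.

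Before treatment the lines differed in nearly all members. Of 35 tested, 20 were higher and 13 lower in untreated GIMEN than in untreated SK-N-AS, 94.3% called against 73.9% of all genes (35.3% higher, 38.6% lower), with a median log2 difference of 1.23 for members and -0.05 for all genes. The largest differences toward GIMEN among members above 10 CPM were LAMA2 (8.47, SE 0.20, edgeR adjusted p = 1.1e-15), LAMB3 (6.84, SE 0.13, adjusted p = 8.8e-17), ITGA10 (6.54, SE 0.21, adjusted p = 3.21e-14) and ITGA2 (5.79, SE 0.16, adjusted p = 5.09e-15). ITGA11 (-3.84, SE 0.24, edgeR adjusted p = 2.15e-10), LAMA5 (-3.56, SE 0.26, adjusted p = 1.99e-09) and ITGA1 (-3.15, SE 0.19, adjusted p = 1.32e-10) were higher in SK-N-AS. Upper-quartile scaling shifted the median of all genes in this comparison to -0.203.

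Of the 25 members tested in both lines, 19 (76%) were called in both S2D30 and GIMEN D30, as were 53.5% of the 13088 genes tested in both. The direction was the same for 13 of the 19 (68.4%) and opposite for 6 (31.6%), and over all genes called in both it was opposite for 20.9%. The 6 were ITGA6, ITGB1 and LAMC1, higher in SK-N-AS and lower in GIMEN, and ITGA10, LAMA5 and LAMB1, lower in SK-N-AS and higher in GIMEN. LAMC1 belongs to them only through a GIMEN call that did not hold in several alternatives, given with its values above. The test of the difference itself called 15 of 35 members higher and 9 lower in SK-N-AS than in GIMEN, 68.6% against 49.7% of all genes (24.5% higher, 25.2% lower). Doses, media and serum differed between the lines, so line and protocol cannot be told apart.

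Among members with at least 10 CPM in a group, the differences between the lines' day-30 changes were largest for ITGB3 (4.61 on the log2 scale toward SK-N-AS, SE 0.32, edgeR adjusted p = 5.02e-09) and LAMA1 (4.54, SE 0.97, adjusted p = 0.000901, or 5.55 without library 3 of GIMEN D30). LAMA1 did not exceed 0.514 CPM in GIMEN, nor LAMA2 0.395 CPM in SK-N-AS, so their values rest on low counts in 1 line. ITGA2 (3.61, SE 0.20, edgeR adjusted p = 3.97e-10), LAMA2 (2.81, SE 0.42, adjusted p = 3.11e-05) and LAMB3 (2.58, SE 0.16, adjusted p = 1.75e-09) followed. ITGA10 (-3.64, SE 0.30, edgeR adjusted p = 5.13e-08) and LAMA5 (-1.92, SE 0.33, adjusted p = 0.000129) changed toward GIMEN. ITGA4 (0.15, SE 0.24, edgeR adjusted p = 0.65), ITGB8 (0.18, SE 0.22, adjusted p = 0.538) and ITGAX (0.92, SE 0.83, adjusted p = 0.388) were not called, and ITGAX was called without library 1 of GIMEN D30 (1.78, adjusted p = 0.00425).

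**Figure D5:**
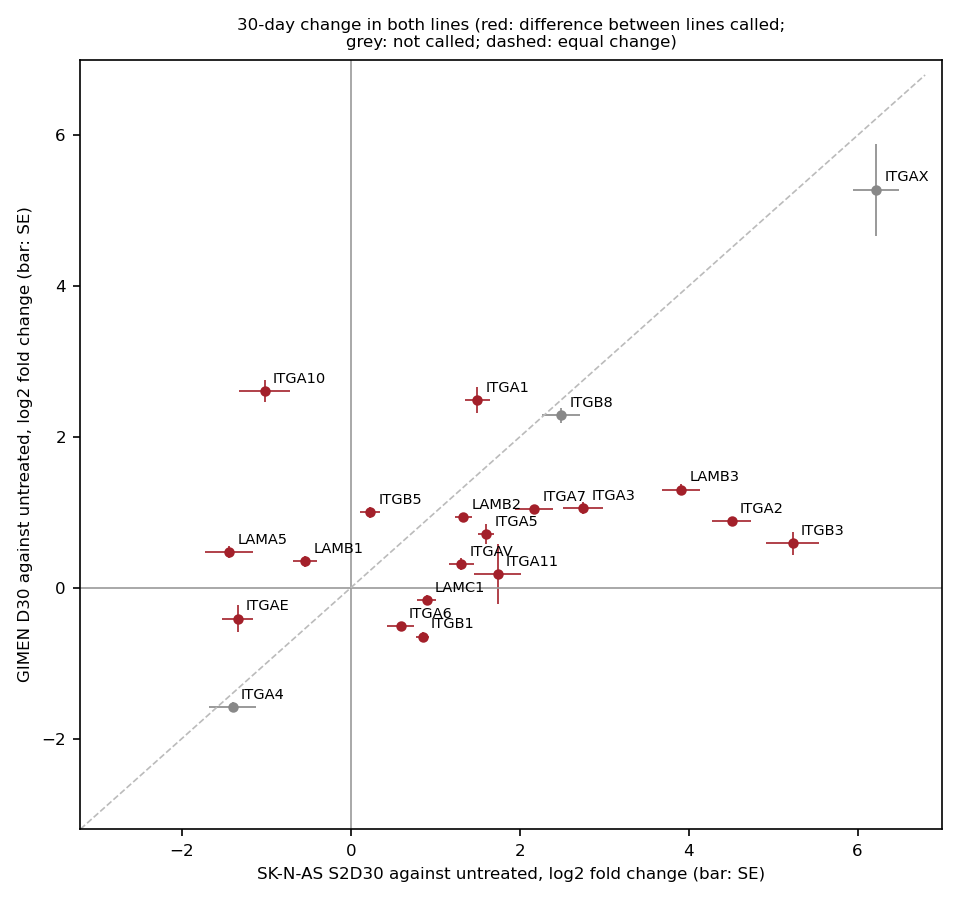
Log2 fold change at day 30 against untreated cells in SK-N-AS (horizontal) and GIMEN (vertical), with SE bars, for the 21 members tested in both lines that reached 10 CPM in a group. Red marks members whose change differed between the lines by the edgeR test and grey those that were not called (ITGA4, ITGB8 and ITGAX), and the dashed line marks equal change. ITGA2, ITGB3 and LAMB3 lie far to the right of that line and ITGA10 far above it.

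The cytoplasmic side of the pathway was described with a list of 38 integrin adaptor and signalling genes. At S2D30, 15 of 35 tested rose and 13 fell (80% called, against 70.3% of all genes, 33.8% higher and 36.5% lower). The median log2 fold change was 0.02, against -0.03 for all genes. FERMT3, the kindlin of blood cells that activates integrins, rose from 45.3 to 274 CPM (2.56), and FERMT1, the kindlin of epithelia, rose from 3.58 to 15.5 CPM (2.08). NEDD9, a docking protein of focal adhesions, fell from 11.9 to 1.08 CPM (-3.50), and TLN2, a talin that links integrins to actin, fell from 43.2 to 11.3 CPM (-1.96).

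At S1D4, 8 of these 35 adaptor genes rose and 7 fell (42.9% called, against 40.1% of all genes, median 0.07). At S2D4 14 rose and 11 fell (71.4% called, against 63.1% of all genes, median 0.05). LIMS1, the PINCH protein of the ILK complex, led the rises in both, from 135 CPM untreated to 439 CPM at S1D4 and 563 CPM at S2D4. In GIMEN D30, 6 of 35 rose and 22 fell (80% called, against 71.4% of all genes, 35.5% higher and 36% lower), with a median of -0.33. The falls were led by NEDD9 (-2.65) and BCAR1, a scaffold of focal adhesions (-1.72), and the rises by LPP (0.98) and TNS2 (0.76), both focal adhesion proteins.

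Among 29 integrin ligands other than laminins, 9 of 22 tested rose and 9 fell at S2D30 (81.8% called, against 70.3% of all genes), with a median of -0.07. TNC rose from 19.7 to 654 CPM (5.02) and THBS2, the gene of thrombospondin-2, from 0.559 to 42.8 CPM (6.15), whereas FN1 (-5.02) and the basement membrane linker NID2 (-2.11) fell. At S1D4 7 rose and 7 fell (63.6% called, against 40.1% of all genes), and at S2D4 9 rose and 9 fell (81.8%, against 63.1%). The S1D4 rises were led by ICAM1, the ligand of leukocyte integrins, which rose by 4.55 from 8.75, 8, 2.53 and 2.93 CPM to 200, 240, 50.1 and 48 CPM. In GIMEN D30, 6 of 19 rose and 8 fell (73.7% called, against 71.4% of all genes), with a median of -0.10, and TNC rose from 67.1 to 670 CPM (3.29). The largest falls there were of the matricellular genes CTGF (-3.67) and CYR61 (-2.64).

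Of 31 basement membrane partners and other laminin receptors, 9 of 27 tested rose and 13 fell at S2D30 (81.5% called, against 70.3% of all genes), with a median of -0.27. The collagen IV chain COL4A6 rose from 0.727 to 45.5 CPM (5.93). COL4A5 was also higher in S2D30 than in untreated libraries (87.2 to 97.3 against 24.9 to 45.3 CPM). COL4A1 (16.5 to 19.5 against 34.4 to 61.9 CPM) and COL4A2 (23.5 to 28.5 against 70.3 to 119 CPM) were lower, and COL4A3 and COL4A4 were under 1 CPM in both groups. The syndecans, proteoglycans of the cell surface, split, with SDC4 up from 22.8 to 148 CPM (2.66), SDC2 down from 59.9 to 4.82 CPM (-3.67) and SDC1 down from 26.9 to 3.48 CPM (-2.99). In GIMEN D30, 11 of 23 rose and 5 fell (69.6% called, against 71.4% of all genes), with a median of 0.23. NTN4, a netrin of basement membranes, rose there from 31.5 to 94.2 CPM (1.55) while SDC3 fell (-1.94). At S1D4 7 of 27 rose and 8 fell (55.6% called, against 40.1% of all genes), and at S2D4 11 rose and 8 fell (70.4%, against 63.1%). The lists share NID1, NID2, CDH1, COL17A1 and FN1.

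The 14 members that did not reach 10 CPM in any group were the lower part of the families. ITGA2B, ITGA8, ITGA9, LAMA3, LAMA4 and LAMC3 are described above. ITGB4 fell to a mean under 1 CPM at S2D4 (-2.08, SE 0.28, edgeR adjusted p = 7.1e-06) and its S2D30 change was not called (-0.55, SE 0.26, adjusted p = 0.0693). ITGAD, ITGAL, ITGAM, ITGB2, ITGB6, ITGB7 and LAMB4 had at most 1.2 CPM in any library, and Set against 3 counts per library, ITGB6, the epithelial partner of ITGAV, was at least 9.16-fold higher in untreated GIMEN than in untreated SK-N-AS.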

How the data were processed

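RNA-seq counts per gene were analysed as deposited by the authors: whole-number read counts for 35237 gene symbols in 22 libraries. The aligner, gene annotation, genome build and strand setting are not given in the sources used here. Samples were grouped from the labels' treatment field.

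Tests used edgeR 4.0.16 in R 4.3.3 (TMM scaling, filterByExpr with a minimum count of 10 and a minimum total of 15, quasi-likelihood test, Benjamini-Hochberg adjustment over all genes, threshold 0.05). 1 model held the 16 SK-N-AS libraries (15810 genes), 1 the 6 GIMEN libraries (13517 genes) and 1 the 14 untreated and day-30 libraries (16246 genes). The biological coefficient of variation was 0.183, 0.0783 and 0.131 in these models. Floors are 3 counts per library. Exon lengths and overlaps came from GENCODE release 29, and promoters from RefSeq.

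On simulated data with 200 changed genes, S1D4 against untreated SK-N-AS recovered 79% of changes of 1 on the log2 scale and 98% of changes of 2 (15810 genes), and GIMEN D30 recovered 91% and 100% (13517 genes). The share of called genes that had not been changed was 5.35% and 8.17%. The 200 genes were well counted and changed up as often as down. In the data 40.1% (S1D4) and 71.4% (GIMEN D30) of genes were called, so these rates need not carry over.

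Members and the 9 gene lists (adaptors, ligands, basement membrane partners, and markers of leukocytes, platelets, epithelia, endothelium and mesenchymal and adrenergic neuroblastoma) were chosen with earlier results of these data known. By rule, values in every library were given for members that reached a mean of 10 CPM in a group, as far as a result turned on them. From other lists, up to 2 called rises and 2 called falls of largest change were named per comparison among genes with a mean of at least 10 CPM in a group compared, plus ligands, defining markers and the other collagen IV chains. Alternatives were DESeq2 1.42.0 (test and size factors), upper-quartile scaling, other filters, a fold threshold, other sample sets, a replicate block and leaving out each library.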

Additional observations from a re-analysis of the deposited data

Results flagged for a closer look

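Among 65 group and member combinations with 4 libraries, 7 had a library far from the others of its group by Dixon's ratio, which assumes normal values. Its cutoff flags about 1 in 20 by chance. Most of the 7 came from the same library, so they are not separate trials and were not compared with that rate. In library 4 of S2D4, ITGA3 was at 865 CPM (others 445 to 479), ITGA6 at 142 CPM (others 102 to 103), ITGA7 at 112 CPM (others 54.7 to 57.4) and LAMA5 at 596 CPM (others 266 to 309). The same library was low in ITGB3, at 7.87 CPM (others 17 to 18.5), and in LAMB1, at 316 CPM (others 365 to 375). Library 4 of untreated SK-N-AS held ITGAV at 140 CPM (others 81.1 to 86).

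The day-30 change differed between the lines, by the edgeR test of the difference itself, for 20 members of at least 10 CPM in a group. On the log2 scale, as SK-N-AS minus GIMEN, the integrin alpha differences were 3.61 for ITGA2, 1.67 for ITGA3, 1.56 for ITGA11, 1.12 for ITGA7, 1.08 for ITGA6, 0.98 for ITGAV, 0.88 for ITGA5, -0.96 for ITGAE, -1.0 for ITGA1 and -3.64 for ITGA10. The integrin beta differences were 4.61 for ITGB3, 1.49 for ITGB1 and -0.79 for ITGB5. The laminin differences were 4.54 for LAMA1, 2.81 for LAMA2, 2.58 for LAMB3, 1.04 for LAMC1, 0.37 for LAMB2, -0.91 for LAMB1 and -1.92 for LAMA5. Line and protocol cannot be told apart in these values.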

How the results depend on the processing

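No called change of a member with at least 10 CPM in a group reversed direction under the alternatives run. Members below that level were counted but not followed singly. Changes near 0 that were not called switched sign for LAMA5 at S1D4, ITGA4 from S1D4 to S2D4, ITGA2 and ITGB8 from S2D4 to S2D30, and ITGA11 in GIMEN D30. Requiring at least 2-fold left 2 lower members at S1D4, 8 higher from S1D4 to S2D4, 10 higher and 2 lower from S2D4 to S2D30, 9 higher and 2 lower in GIMEN D30, and 5 lower in the line difference, since fewer changes reach that size. Leaving out each library gave 10 to 12 higher and 6 to 7 lower members at S1D4, 13 to 15 and 10 to 12 at S2D4, 18 and 9 at S2D30, and 12 to 14 of each from S1D4 to S2D4. From S2D4 to S2D30 it gave 12 to 18 and 5 to 7, in GIMEN D30 16 to 17 and 4 to 6, in the line difference 14 to 16 and 9, and between untreated lines 20 and 12 to 13. Of single-member values at that level, 1443 stayed as they were, called or not called, without a library, 37 lost a call and 15 gained one.

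The replicate numbers did not meet the condition for pairing, a correlation over 0.1 in every pair. Deviations of same-numbered S1D4 and untreated libraries correlated at 0.274, 0.266, 0.0436 and 0.293, and 3 of these 4 matched best with their own number, a hint from the data and not from the design. Elsewhere the correlations were -0.101 to 0.103. With a replicate block the counts of higher and lower members were 11 and 7 at S1D4, 14 and 11 at S2D4, 18 and 10 at S2D30, 13 and 13 from S1D4 to S2D4, 16 and 6 from S2D4 to S2D30, 16 and 5 in GIMEN D30 and 14 and 9 in the line difference. The block could not be fitted to the untreated lines. Members under 1 CPM are limited by depth.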
